A study of Rattus norvegicus with 4 samples.

Results

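The regions described here were stretches of open chromatin in rat retinal ganglion cells (RGCs) that were present before and after birth but stood much higher in the postnatal lists. In each library every open chromatin region (OCR) was given a percentile for its −log10 q value, running from 0 for the weakest OCR to 100 for the strongest. OCRs of the 4 libraries that overlapped by at least 1 bp were merged into 224715 regions on the 20 numbered chromosomes, and 81097 of these were present in all 4 libraries. Gaining regions were selected on these percentiles: both postnatal values had to exceed both embryonic values, with a gap of 25 points or more between the stage means. This rule gave 9936 gaining regions, or 12.3% of the shared regions, and the same rule in the other direction gave 7017 losing regions. The rule used the ranks of all 4 libraries, so ranks and the measures that move with them (fold, pileup and width) are given as descriptions without a test. The number rose whichever library was left out, and so did the number of shared regions. It ranged from 10714 (12.5% of 86007 shared regions) without the second postnatal library to 15621 (18.7% of 83447) without the second embryonic library.

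Rat RGCs were immunopanned from retinas of embryonic day 21 (E21) or postnatal day 11 (P11), and 300000 cells of each preparation were frozen for ATAC-seq. Each stage had 2 libraries, which per the study's methods came from independent litters, and the labels record no difference of genotype or treatment between the stages. In each library 123707 to 163714 OCRs lay on the numbered chromosomes, and the weakest summits carried 13 or 14 overlapping tags. The first E21 library had the shortest list. OCRs were not assigned to genes here, so the labelled cell type was not checked against marker genes. In a purified population, a higher share of cells with a region open and a wider opening in each cell cannot be told apart.

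RGCs are the output neurons of the retina, and their axons form the optic nerve. Between late embryonic life and the second postnatal week these neurons pass from axon extension to dendrite growth, synapse formation and responses to visual input. ATAC-seq uses a transposase that inserts preferentially into DNA not wrapped in nucleosomes, so strong OCRs mark promoters, enhancers and insulators that are open in many of the cells.

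**Figure D1:**
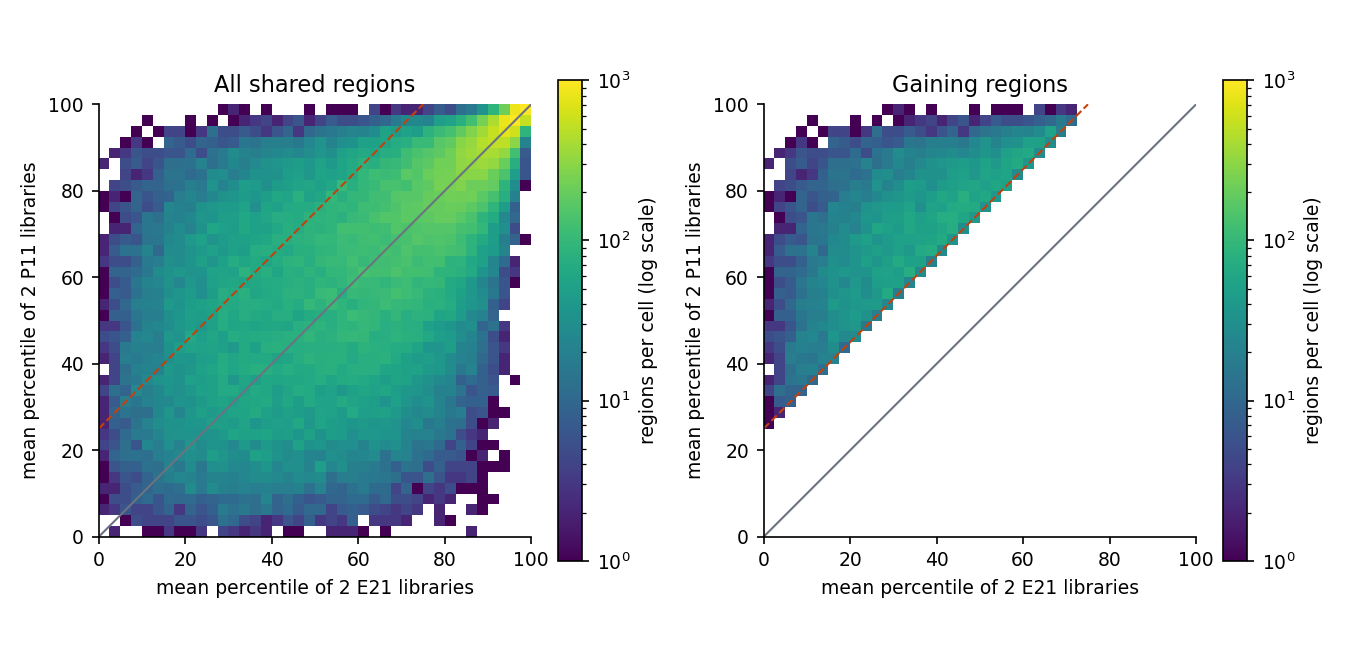
Mean percentile of the P11 libraries (vertical) against that of the E21 libraries (horizontal) for 81097 shared regions (left) and 9936 gaining regions (right), as the number of regions in each cell of the grid on a log colour scale. The solid line marks equal ranks and the dashed line a difference of 25 points. Gaining regions fill the upper left, with a median of 32.3 at E21 and 73.6 at P11, while the densest cells of all shared regions lie near 100 at both stages.

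The gaining regions were weak OCRs at E21 and somewhat stronger than typical shared regions at P11. Their median percentile was 24.1 and 40.7 in the first and second E21 libraries, against 64.9 and 71.9 over all shared regions. At P11 it was 73.3 and 75.4, against 70.1 and 72.0. Most of the contrast with all shared regions lay in the embryonic ranks, but the rule favoured this, so it is a description. A member had to rank at least 25 points lower at E21, so its E21 mean could not exceed 75. Losing regions showed the mirror image, with a median P11 mean of 31.7, against 69.9 over all shared regions. Their median E21 mean was 70.6, against 67.7. In gaining regions the difference of stage means had a median of 36.5 points (quartiles 30.0 and 45.7) and reached 85.9. It was at least 40 points in 3883 regions, at least 60 in 566 and at least 80 in 20.

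The starting and final ranks varied widely among the gaining regions. The E21 mean lay below percentile 25 in 3260 regions (32.8%), between 25 and 50 in 5137 (51.7%), and at 50 or above in 1539 (15.5%). The P11 mean reached percentile 75 to 90 in 3767 regions (37.9%) and 90 or above in 823 (8.28%), while 747 stayed below 50. A passage from the bottom to the top of the lists was rare. Only 206 regions (2.07%) were below percentile 25 in both E21 libraries and above 75 in both P11 libraries.

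The median offset between the E21 libraries over the gaining regions exceeded that between the P11 libraries. It also did so over other shared regions of similar starting rank. The standard deviation of the difference was 18.5 points (E21) and 12.4 points (P11) in gaining regions. It was 20.5 and 23.0 in other shared regions with an E21 mean between percentile 25 and 50, and 10.6 and 22.5 in losing regions. The second E21 library ranked a gaining region above the first in 7466 cases (75.1%), with a median difference of 13.0 points. Over all shared regions this share was 72.4% and the median difference 4.22 points, and over other shared regions with an E21 mean between percentile 25 and 50 they were 75.1% and 14.0 points. Between the P11 libraries the median difference was 1.74 points in gaining regions and 0.68 in all shared regions. Gains measured from the first E21 library were accordingly larger. Their medians were 43.6 and 45.7 points to the first and second P11 libraries, against 29.7 and 31.5 points from the second E21 library.

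**Figure D2:**
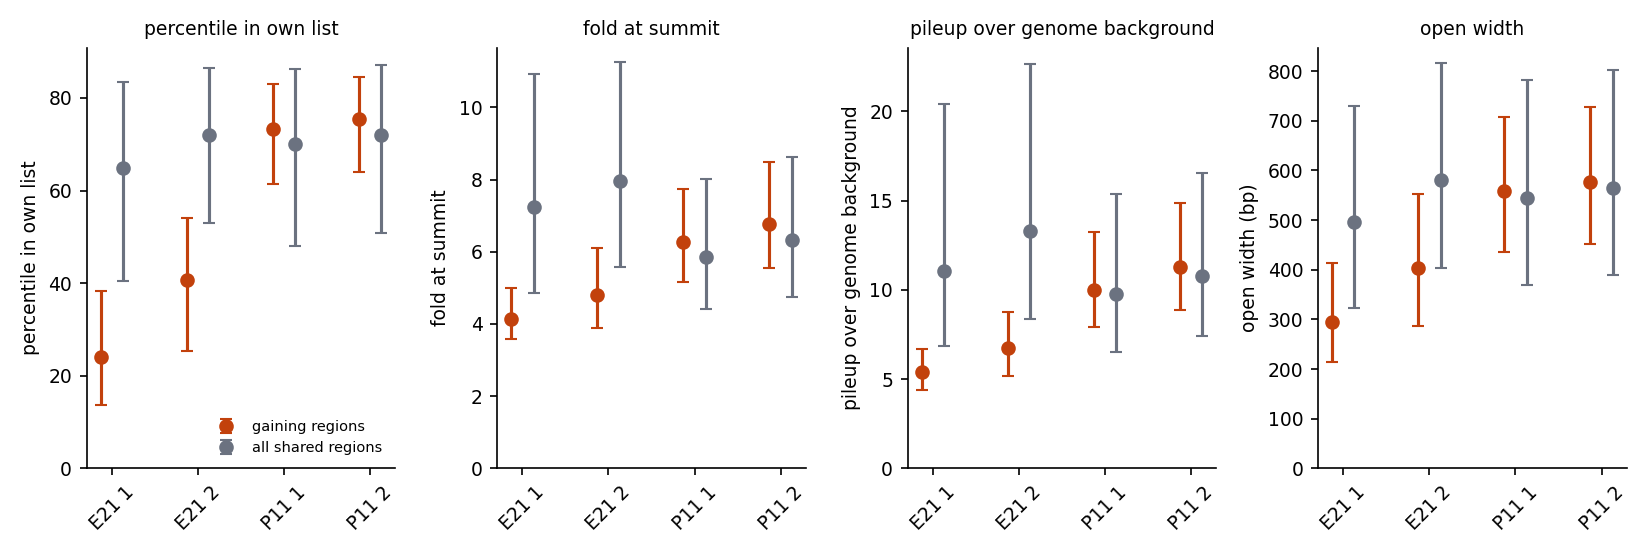
Median (point) and quartiles (bars) of 4 quantities in each library for the gaining regions and for all shared regions: the percentile in the library's own list, the fold at the summit, the summit pileup divided by the library's genome background, and the open width in bp. In each panel the gaining regions lie below all shared regions at E21 and slightly above them at P11.

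The fold at the summit, which is the pileup relative to the local background, moved against the general direction of shared regions. The median fold of the gaining regions stood at 4.14 and 4.81 in the E21 libraries and at 6.26 and 6.78 in the P11 libraries. Over all shared regions the median fell from 7.24 and 7.95 to 5.85 and 6.34. The median ratio of P11 to E21 was 1.41 (log2 0.49) in gaining regions and 0.811 (log2 −0.30) in all shared regions. Fold was higher in both P11 libraries than in both E21 libraries in 7624 gaining regions (76.7%), against 12.6% of all shared regions. The stages overlapped in 2300 gaining regions and fold was lower in both P11 libraries in 12. Because the fold comes from the same OCRs that the rule ranked, this count is a description of the members.

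The summit pileup, recovered from the deposited fold and p-value, gave the same direction in tags. In gaining regions its median stood at 26 and 34 tags in the E21 libraries and at 43 and 47 in the P11 libraries, while over all shared regions it went from 53 and 67 to 42 and 45. Divided by the genome background of each library, the gaining regions stood at 5.41 and 6.75 times background at E21 and at 10.0 and 11.3 times at P11. The unscaled pileup was higher in both P11 libraries in 6813 gaining regions (68.6%), against 10.5% of all shared regions, and the stages overlapped in 3109 (31.3%). The scaled pileup was higher in both P11 libraries in 8963 gaining regions (90.2%), against 18% of all shared regions. The local background itself was higher in both P11 libraries in 3308 gaining regions (33.3%), compared with 13.1% of all shared regions. It was lower in both P11 libraries in 3877 gaining regions (39.0%), compared with 63.6% of all shared regions. Its part in the gain of rank was not tested.

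Gaining regions also widened. Their open width, the summed length of the OCRs of a library within a region, had a median of 295 and 403 bp at E21 and 558 and 576 bp at P11. It was larger in both P11 libraries in 7165 gaining regions (72.1%), against 28.2% of all shared regions. The median ratio of P11 to E21 width was 1.57 in gaining regions and 1.02 in all shared regions. Width and rank come from the same pileup and are not separate measures.

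Gaining regions can also be set beside shared regions that began at similar ranks. With an E21 mean between percentile 25 and 50, there were 5137 gaining regions and 11511 shared regions that neither gained nor lost. The median fold ratio of P11 to E21 was 1.38 in the former and 0.923 in the latter. The scaled pileup ratio was 1.66 and 0.985, and the width ratio was 1.53 and 1.06. Their ranks decided which of these regions counted as gaining, so the contrast describes the selection. The median E21 mean was 36.3 in the gaining and 39.3 in the other regions, so their starts were similar but not equal. The other regions of similar start went both ways, and 24.5% of them were wider and 16.6% narrower in both P11 libraries.

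Summit positions were compared between the stages. Between same-numbered libraries the E21 and P11 summits of gaining regions lay a median of 61 and 51.5 bp apart, against 44 and 38 bp over all shared regions. The smallest distance between any E21 and any P11 summit had a median of 11 bp, against 9 bp over all shared regions. In 478 gaining regions (4.81%) every E21 summit lay over 200 bp from every P11 summit, compared with 4.16% of all shared regions. The E21 summits themselves lay over 200 bp apart in 11.5% of gaining regions and 6.47% of all shared regions. Summits were thus farther apart in gaining regions than in all shared regions by each of these measures. The P11 summits went the other way, over 200 bp apart in 8.81% and 10.5%. With an E21 mean between percentile 25 and 50, median same-numbered distances were 57 and 48 bp in gaining regions. They were 60 and 53 bp in other regions. The smallest distance was then 11 bp in both. Every E21 summit lay over 200 bp from every P11 summit in 4.52% and 4.31%. The E21 summits lay over 200 bp apart in 565 of 5137 gaining regions, a higher share than the 9.41% of other regions. Gaining regions that combined more than 1 OCR of a library made up 8.52%, against 9.33% of all shared regions.

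The largest separation between the stages, by the lower P11 and the higher E21 percentile, was on chromosome 12 from 14200148 to 14201200 (positions on the build of the lists, Rnor_6.0). This region ranked at percentile 8.86 and 11.5 at E21 and at 95.6 and 96.6 at P11. Its summit carried 25 and 26 tags at E21 and 118 and 124 at P11, and the fold rose from 3.15 and 3.18 to 10.4 and 11.8. The region opened over 155 and 490 bp at E21 and over 1013 and 950 bp at P11. Its summits were spread over 642 bp, with that of the second E21 library farthest from the rest.

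The region on chromosome 16 from 44403556 to 44404725 kept its summit within 7 bp in all 4 libraries. Its summit held 18 and 17 tags at E21 and 76 and 57 at P11, and its percentile passed from 4.34 and 2.03 to 92.6 and 85.0. On chromosome 14, the region from 42875388 to 42876078 held 19 and 20 tags at E21 and 72 and 95 at P11. Both were close to the weakest summits of the E21 lists. The region on chromosome 5 from 70558748 to 70559971 had 20 and 15 tags at E21 and 67 and 66 at P11. The region on chromosome 6 from 131127076 to 131127629 had 16 and 18 tags at E21 and 48 and 54 at P11. On chromosome 8, the region from 59835875 to 59836506 had 19 and 20 tags at E21 and 58 and 69 at P11. These 6 regions were picked for the gap in percentile, among those with a fold of at least 4 in both P11 libraries. Each P11 library therefore exceeded both E21 libraries in percentile by the choice. Fold and pileup, which move with rank, were also higher in each P11 library than in both E21 libraries. The choice favoured this too, so it is a description.

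**Figure D3:**
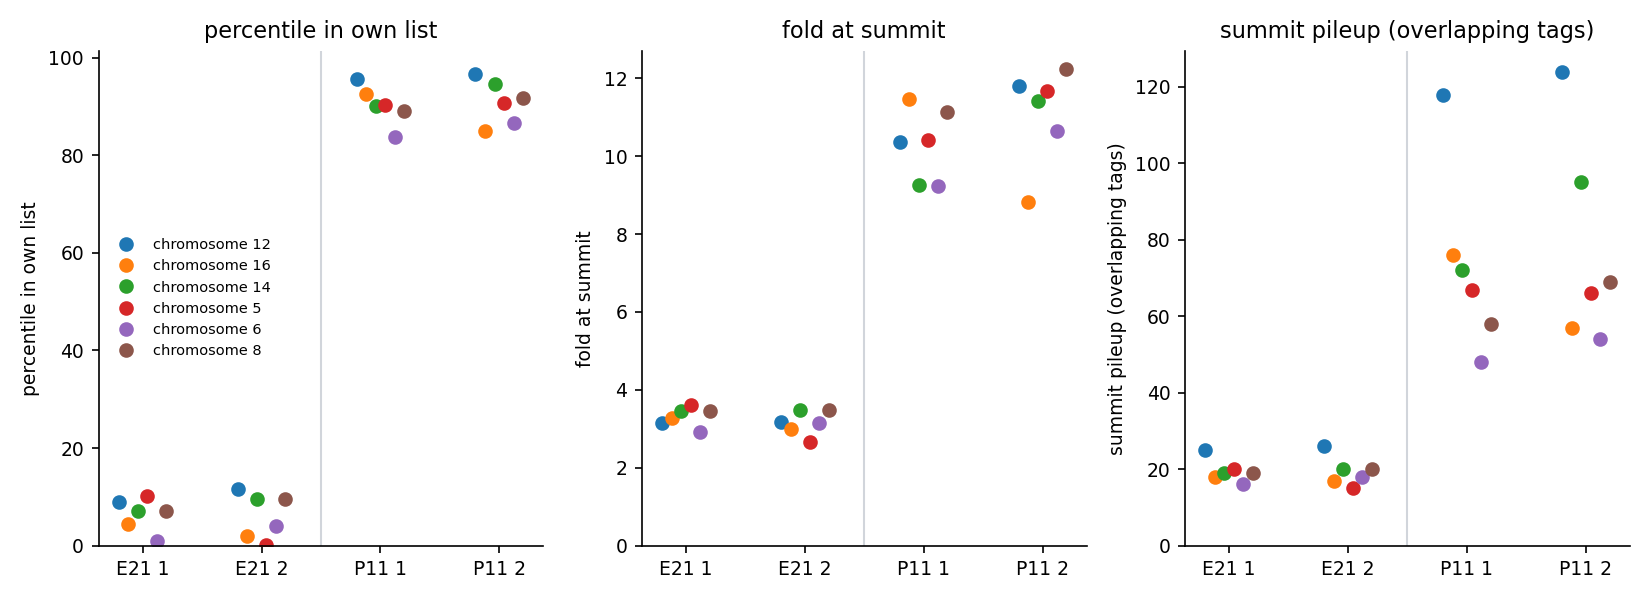
Percentile, fold at the summit and summit pileup (overlapping tags) of the 6 gaining regions with the largest separation of ranks between the stages, 1 point per region and library, with the chromosome as the colour. The E21 points lie at or below 26 tags and the P11 points at or above 48 tags.

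The 3 gaining regions that ended highest had not all started low. The highest P11 mean was on chromosome 19 from 28986957 to 28988190, with percentiles of 59.3 and 68.6 at E21 and 99.0 and 99.4 at P11. Its summit held 43 and 56 tags at E21 and 208 and 209 at P11, with all summits within 9 bp. The next region, on chromosome 19 from 188262 to 189062, started lower. It held 22 and 32 tags at E21 and 178 and 209 at P11, and its percentiles were 17.2, 43.4, 98.8 and 99.4 in the same order of libraries. On chromosome 2 from 156682279 to 156683742, the summit held 44 and 57 tags at E21 and 192 and 218 at P11.

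The threshold of 25 points cut through a continuous distribution. There were 521 gaining regions between 25 and 26 points, and 525 regions between 24 and 25 points whose stage ranks did not overlap. Just inside lay the region on chromosome 5 from 161493904 to 161494526, with percentiles of 2.27 and 41.4 at E21 and 42.8 and 50.9 at P11. Just outside lay the region on chromosome 3 from 160514527 to 160515383, with 20.7 and 44.1 at E21 and 47.4 and 67.4 at P11. In both regions the E21 libraries differed from each other by more than 20 points. In the second pair nearest the threshold the stages were farther apart. The region on chromosome 9 from 45985161 to 45985535, just inside, had percentiles of 51.1, 61.1, 81.2 and 81.0, and the region on chromosome 14 from 86188540 to 86189000, just outside, had 37.3, 58.1, 70.8 and 74.6.

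Chromosomes differed in the share of shared regions that gained. The share was highest on chromosome 17, with 492 of 3247 regions (15.2%, 95% Wilson interval 14.0 to 16.4), and lowest on chromosome 10, with 342 of 4210 (8.12%, 7.34 to 8.99). Chromosomes 14 and 18 followed chromosome 17 with 14.3% and 14.2%, and chromosome 12 was next to the lowest with 9.94%. The intervals cover counting error only, and neighbouring regions are not independent. Chromosome 17 was highest and chromosome 10 lowest in the share of regions at least 25 points higher in each of the 4 pairings of an E21 with a P11 library. The pairings share libraries and use the same ranks as the rule, so they describe the order and are no separate test of it. The same order held among the 48948 shared regions with an E21 mean of at most 75, those for which a gain of 25 points was possible. There 23.9% gained on chromosome 17 and 14.8% on chromosome 10, against 20.3% on all chromosomes.

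**Figure D4:**
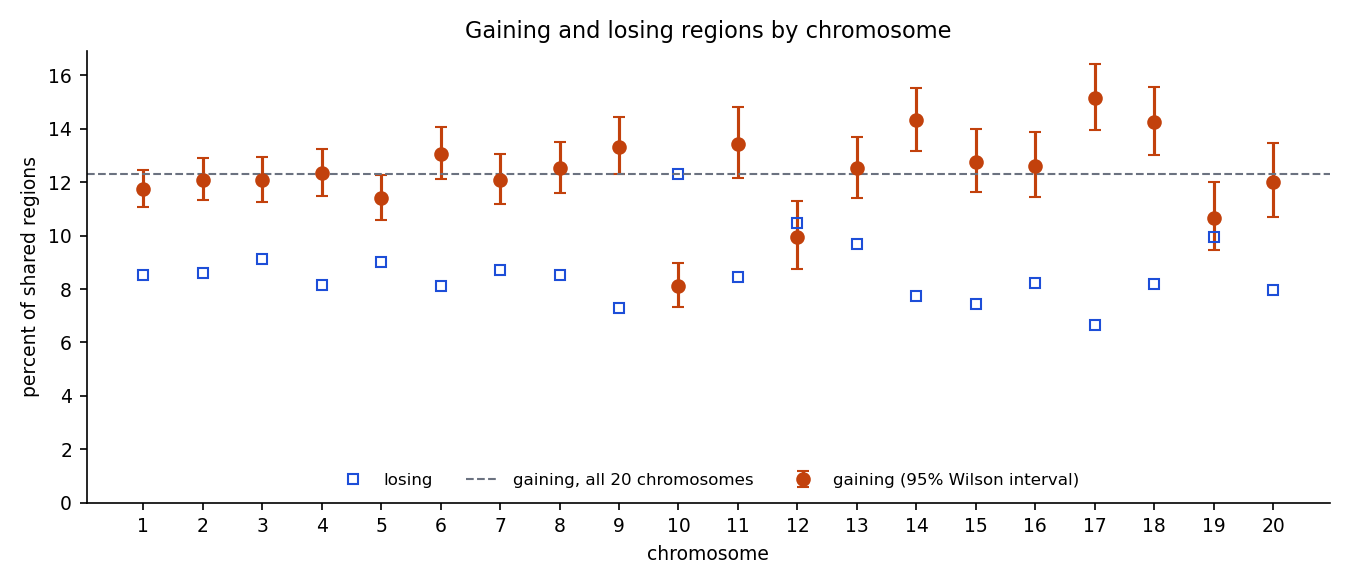
Percent of the shared regions of each numbered chromosome that gained (circles, with 95% Wilson intervals) or lost (squares), with the gaining share of all 20 chromosomes as the dashed line. Chromosome 17 has the highest gaining and the lowest losing share, and chromosome 10 the lowest gaining and the highest losing share.

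The 2 chromosomes at the ends of this order also differed in the number of OCRs called. Chromosome 17 held 3.74% and 3.80% of the OCRs of the E21 lists and 4.24% and 4.35% of those of the P11 lists. Chromosome 10 held 5.42% of each E21 list and 4.98% and 4.66% of the P11 lists. Thus the called share of chromosome 17 was larger in both P11 libraries and that of chromosome 10 smaller. Across the 20 chromosomes the gaining share ran against the losing share (Pearson's r −0.89, Spearman's rho −0.78) and more loosely against the number of shared regions per Mb (r −0.43, rho −0.35). These points share the same 4 libraries, and the correlations are descriptions.

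Gaining regions had other gaining regions and regions found only at P11 nearby slightly more often than other shared regions did. Another gaining region lay within 10 kb of 13.0% of the gaining regions and of 10.7% of the shared regions that neither gained nor lost. A region present in both P11 libraries and neither E21 library lay within 10 kb of 30.7% and 26.7%, respectively, and this share was higher for gaining regions on all 20 chromosomes. For regions found only at E21 the shares were 15.8% and 15.1% (higher on 17 chromosomes), and for losing regions 7.61% and 7.16% (higher on 15). Gaining regions thus had each of these kinds within 10 kb slightly more often. By median distance they lay nearer to gaining regions (53.4 against 66.0 kb) and P11-only regions (19.5 against 23.6 kb). They lay farther from E21-only regions (45.1 against 43.9 kb) and losing regions (106 against 101 kb). The differences in the shares within 10 kb shrank or turned round when regions of similar start were compared. With an E21 mean between percentile 25 and 50, another gaining region lay within 10 kb of 13.2% (12.3 to 14.2) of gaining and 12.8% (12.2 to 13.5) of other regions, and a P11-only region within 10 kb of 30.1% and 28.7%. An E21-only region lay within 10 kb of 16.2% of gaining and 17.1% of other regions, and a losing region within 10 kb of 7.30% and 8.62%. When OCRs were ranked by fold, the share with a gaining neighbour was 1.01 times that of other shared regions, against 1.21 times with the ranking used here, so the proximity among gaining regions depended on the order used.

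Most gaining regions were spread over the genome, with a few dense stretches. Of 2216 windows of 1 Mb with at least 10 shared regions, 129 held no gaining region, the median window had 11.8% and the 90th percentile was 21.3%. The window with the most gaining regions, 20 of 44, was on chromosome 1 from 54005467 to 54982442. Together with the windows on either side it formed a stretch from 53013996 to 55997354 in which 57 of 177 shared regions gained and 2 lost. On chromosome 16, from 21001322 to 22981802, 35 of 139 shared regions gained and 1 lost. These windows were picked for their counts, which are given without a test.

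On chromosome 17 from 68048004 to 68934540, 18 of 35 shared regions gained and none lost. This window, too, was picked for its gaining regions. Of the 35, 30 ranked higher at P11 by stage means. The median difference of stage means was 25.4 points, against 0.68 over all shared regions. The gaining regions there had median percentiles of 22.4 and 34.7 at E21 and 75.1 and 74.9 at P11. The same window held 19 regions found only at P11 and 4 found only at E21. Over all numbered chromosomes there were 28103 and 17102 such regions, so P11-only regions were the more numerous in general. Regions with an E21 mean above 75 could not meet the rule.

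**Figure D5:**
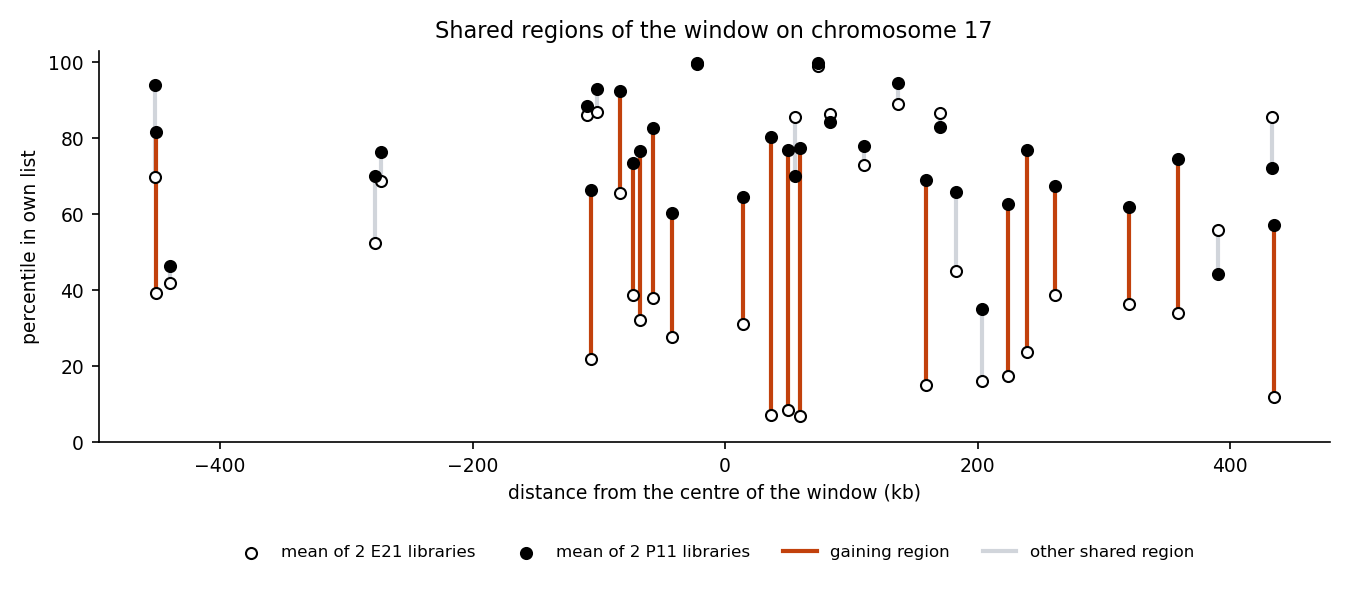
Mean percentile at E21 (open circles) and P11 (filled circles) of the 35 shared regions of the window on chromosome 17, against distance from the centre of the window in kb, with a line joining the stages for each region. In the 18 gaining regions the P11 circle lies at least 25 points above the E21 circle, and some of the other shared regions lie lower at P11 than at E21.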

How the data were processed

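ATAC-seq of immunopanned rat RGCs gave 4 lists, 2 per stage. The authors ran the ATAC-seq Integrative Analysis Package (AIAP), with OCRs called library by library. The submitters' processing notes name MACS2 and the builds Rnor_6.0 and rn6, and the caller's version was not given in the sources used here. Per OCR, the deposited narrowPeak lists give a score, the fold enrichment at the summit (a ratio to local background), −log10 p-values and −log10 q-values, and the summit position. The authors' score was not used. Read totals were not used. The lists held 123707 to 163714 OCRs with summit pileups of at least 13 tags, and these numbers do not order the libraries by depth.

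Stage and replicate came from the labels. No list held a duplicate line. The members and lists were chosen with earlier results of these data known. A region took its best percentile per library. Pileup and local background were solved from fold and p-value under MACS2's Poisson formula, and the pileup was whole within 0.02 in 100% of OCRs. The genome background, the lowest local background of a list, was 4.80 and 5.03 tags at E21 and 4.30 and 4.17 at P11. Replicate numbers were not treated as pairing the libraries. The correlation of same-numbered deviations over shared regions was 0.03, but whether same-numbered libraries were processed together was not tested. Regions named were the 6 with the largest gap between stages (fold of at least 4 in both P11 libraries, at most 1 per 1 Mb), the 3 with the highest P11 mean, and 2 just inside and 2 just outside the threshold. Dense windows were chosen after their values were seen. Promoter, gene, marker, base composition and motif comparisons were planned but not made, because no genome or annotation of the lists' build was used here, and no sequence is shown for the same reason. The scripts used Python 3.11.15, pandas 2.3.3, NumPy 2.4.6, SciPy 1.17.1 and matplotlib 3.10.9. The rank rule was tested on simulated data with a larger change than most gaining regions showed. The pileup solution was tested on simulated pileups above those of most gaining regions.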

Additional observations from a re-analysis of the deposited data

How the results depend on the processing

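The number of gaining regions, 9936 as reported, became 18963 when 10 points were enough and 3883 when 40 were required, at which the share with a gaining neighbour fell from 1.21 to 1.09 times that of other shared regions. With 1 library left out it ranged from 10714 (second P11 library, 12.5% of shared regions) to 15621 (second E21 library, 18.7%). With the replicate block, in which both same-numbered differences had to be above 0, it was 10136 and included all 9936. Ranking by fold gave 9413 (8269 in common) and ranking among shared regions only gave 9730 (8063 in common). Equal numbers of OCRs per list gave 6942, a −log10 q of at least 5 gave 7940, regions of single OCRs 9089 and inclusion of X 10068. Without regions of local background over 3 times the genome background, an alternative chosen after seeing the data, the number was 9175 (13.7% of 67019). The share gaining on chromosome 17 stayed 1.17 to 1.32 times, and on chromosome 10 0.647 to 0.784 times, that of all chromosomes under all of these alternatives. Alternatives for promoters, motifs and protein-coding start sites were not run because OCRs were not assigned to genes. Each stage had 2 libraries, so the spread within a stage rests on a single difference per region.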

Other observations

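On the X chromosome, which lay outside the rule, 128 of 1328 shared regions (9.64%, 95% Wilson interval 8.17 to 11.3) met the same criteria and 94 lost rank.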
